A study of Rattus norvegicus with 2 samples.

Results

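Hox genes encode the homeodomain transcription factors that give cells along the body and limb axes their positional identity. The gene set described here is the Hox cluster genes, taken as every row of the annotated array table whose only gene symbol is Hox followed by a cluster letter (a to d) and a paralogue number. The rule found 31 genes among the 18489 genes measured, each read by 1 probe set: 8 in the Hoxa cluster, 9 in Hoxb, 7 in Hoxc and 7 in Hoxd. The cells were muscle-derived stem cells (MDSC), cultured skeletal muscle stem cells of male obese Zucker fa/fa rats, a strain with a mutated leptin receptor, and the series belongs to a study of MDSC implantation for erectile dysfunction in rats. There were 2 samples, 1 array of RNA from late diabetes MDSC and 1 array of RNA from early diabetes MDSC, with the same strain, sex and cell type. Both labels give culture in 20% fetal bovine serum with 5.6 mM or 22 mM glucose, without saying which glucose level either array had. The labels used here name neither the muscle the cells came from, nor the age of the rats, nor how many animals were pooled. With 1 array a group there was no replicate error and no test, and diabetes stage cannot be told apart from any other difference between the 2 cultures.

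In mammals the Hox genes lie in 4 clusters, and within each cluster genes of low paralogue number sit at the 3′ end and those of high number at the 5′ end. Low numbers are used toward the head and high numbers toward the tail and, in the Hoxa and Hoxd clusters, toward the tip of the limb and the genital tubercle. Most of the roles given below for single genes are known from mice. Cultured fibroblasts are known to keep a Hox pattern that depends on the body site they were taken from. Hox proteins bind DNA together with cofactors of the TALE homeodomain class, and Polycomb and Trithorax proteins hold the clusters silent or active.

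The clusters also encode microRNAs of the miR-10 and miR-196 families, which are shown because their genes stand between Hox members on the same chromosome. Mature sequences are those of RefSeq on the GRCr8 rat assembly, 5′ to 3′, with bases 2 to 8, the seed, in capitals. The miR-196a, miR-196b and miR-196c guides, from the Hoxc, Hoxa and Hoxb clusters, share their seed.
rno-miR-196a-5p: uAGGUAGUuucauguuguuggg
rno-miR-196b-5p: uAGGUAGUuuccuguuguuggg
rno-miR-196c-5p: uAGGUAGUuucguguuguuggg
rno-miR-10a-5p: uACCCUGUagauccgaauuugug
rno-miR-10b-5p: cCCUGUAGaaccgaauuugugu
The miR-10b-5p entry starts 2 bases after the point where the miR-10a-5p entry starts, so bases 2 to 8 of the 2 entries differ.

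Of the 31 Hox genes, 9 were 1.5-fold or more apart between the arrays and the others were closer. Hoxc13, Hoxc12, Hoxa10 and Hoxa5 were higher in late MDSC by 2-fold or more, and Hoxd13 was 3.69-fold lower. These 4 higher genes were 12.9% of the family, where 3.59% of all measured genes were as much higher, and the 1 lower gene was 3.23%, where 1.86% of all measured genes were as much lower. A threshold of 1.5-fold took 6 higher genes (19.4%) and 3 lower ones (9.68%), where it took 7.73% and 4.35% of all measured genes. These shares describe 2 arrays and carry no test.

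A floor was set at the median over all genes and both arrays (an intensity of 261, log2 8.03), and 18 of the 31 Hox genes reached it in at least 1 array and are called compared. The 18 held the same 4 higher genes, where 5.84% of the 9738 compared genes were as much higher, and the same lower gene, where 3.11% were as much lower. Of the 18, 13 passed in both arrays and 5 passed in the late array alone, namely Hoxa5, Hoxa10, Hoxc8, Hoxc12 and Hoxc13. Those 5 had to be higher in the late array to be compared, so the 18 are not an even sample of the family, and counts over all 31 are to be preferred. The late minus early difference of the 18 had a median of -0.11 and a mean of 0.17 on the log2 scale, of opposite sign, beside a median of 0.06 for all compared genes. Over all 31 the median was -0.06, beside -0.04 for all measured genes. The lower value lay in the late array for 17 of the 31 Hox genes (54.8%) and for 56.0% of all measured genes.

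**Figure D1:**
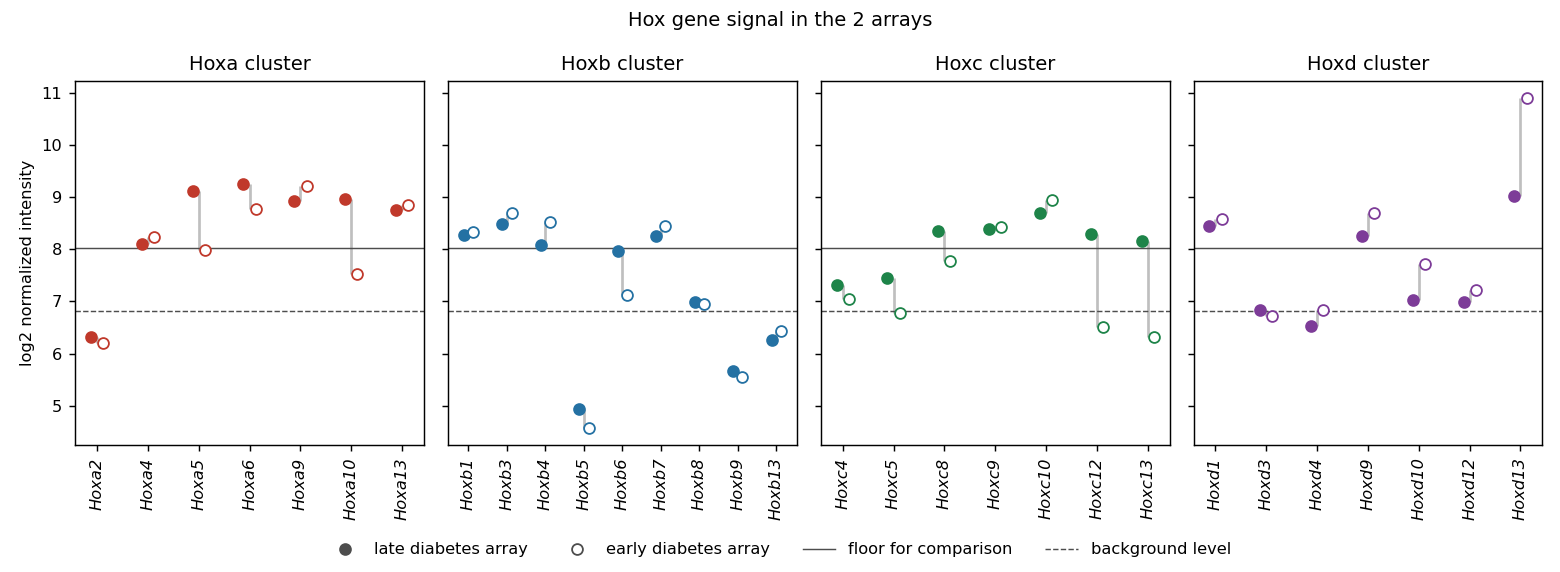
Log2 normalized intensity of the Hox genes reported here, by cluster and in order of paralogue number, in the late diabetes array (filled circles) and the early diabetes array (open circles), 1 value each. The solid line is the floor for comparison (8.03) and the dashed line the background level (6.81). The widest gaps are at Hoxd13, Hoxc13, Hoxc12 and Hoxa10.

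The background level was the 95th percentile of 1199 olfactory receptor genes, an intensity of 112. In all, 26 of the 31 Hox genes lay above it in the late array and 23 in the early array. Below it in both lay 4, namely Hoxa2, Hoxb5, Hoxb9 and Hoxb13. Of all 18489 measured genes, 12603 lay above it in the late array, 12974 in the early array, and 5241 below it in both. Each Hox gene had a single probe set, so the spread between probe sets is known only from other genes. Over 409 genes with 2 probe sets at or above the floor, the differences between the arrays that 2 probe sets of a gene gave had an SD of 0.22 on the log2 scale. Of the 31 symbols, 3 are also listed by RefSeq as an older name of another Hox gene, and their values are given below with that other name. Of the 39 Hox genes in the RefSeq table, 8 had no row under their current name.

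The Hoxd cluster held the gene with the largest difference downward. Hoxd13 encodes the factor at the 5′ end of the cluster, which patterns digits and the external genitalia. Its normalized intensity was 522 in the late array and 1927 in the early array, a log2 difference of -1.88. Of all compared genes, 0.863% were further down. Hoxd13 lay above background and above the floor in both arrays. Hoxd10, a gene of the limb and lumbar spine, had 131 in the late array and 210 in the early array, 1.61-fold lower, under the floor in both. Hoxd9, also a gene of the limb and the lumbar region, had 306 in late and 414 in early MDSC, a difference of -0.43.

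The other Hoxd genes were closer together in the 2 arrays. Hoxd12, the direct neighbour of Hoxd13 and also a gene of distal limb pattern, had 128 in the late array and 149 in the early array. Hoxd1, at the 3′ end, had 351 in the late array and 384 in the early array. Hoxd4, a gene of the cervical vertebrae and hindbrain, had 92.8 in the late array and 115 in the early array, and Hoxd3, which shapes the first vertebrae, had 115 in the late array and 106 in the early array. Late MDSC thus had less signal for 6 of the 7 Hoxd genes and more for Hoxd3. The differences ran from -1.88 to 0.11 on the log2 scale. The lower value lay in the late array for 56.0% of all measured genes, and for 70.8% of genes under the floor in both arrays. Hoxd3, Hoxd4, Hoxd10 and Hoxd12 were under the floor in both. Both values of Hoxd3 and Hoxd4 were near the background level.

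Hoxd12, at 128 and 149, lay under the floor and close to the background of 112, so only a small fall could have been seen there. The promoters of Hoxd13 and its neighbour Hoxd12 are shown because the measured differences of these adjacent genes were so unlike in size. Each runs from 250 bases before to 50 bases after the gene's start, from RefSeq on GRCr8, plus strand, with every CG pair in capitals.
Hoxd13, chr3:79977827-79978126: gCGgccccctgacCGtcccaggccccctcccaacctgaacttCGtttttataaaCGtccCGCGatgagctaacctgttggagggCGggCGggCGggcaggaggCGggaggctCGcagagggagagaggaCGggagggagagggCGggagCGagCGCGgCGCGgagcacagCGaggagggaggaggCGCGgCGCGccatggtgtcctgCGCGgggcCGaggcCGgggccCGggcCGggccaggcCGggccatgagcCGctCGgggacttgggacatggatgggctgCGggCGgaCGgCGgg
Hoxd12, chr3:79984856-79985155: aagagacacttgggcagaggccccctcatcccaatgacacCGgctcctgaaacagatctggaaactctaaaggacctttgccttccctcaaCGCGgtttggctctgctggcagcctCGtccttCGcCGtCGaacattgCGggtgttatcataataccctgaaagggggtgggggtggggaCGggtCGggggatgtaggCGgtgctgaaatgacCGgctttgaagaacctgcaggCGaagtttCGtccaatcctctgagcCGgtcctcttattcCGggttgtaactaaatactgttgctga
The Hoxd13 window held 36 CG pairs, more than 94.6% of the 33469 promoter windows of that length in the RefSeq table, and the Hoxd12 window held 16, more than 69.5%. Windows of 15 Hox members were found, 16 in all, and held 6 to 42 CG pairs with a median of 21.5, against a median of 7 over the whole table. The letters TATAAA, searched on both strands, stood in the Hoxd13 window and not in that of Hoxd12. They stood in 4 of the 16 Hox windows, with both windows of Hoxa10 among the 4, and in 14.2% of all windows. The array gives no measure of methylation or factor binding at these windows, so the counts describe sequence alone.

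In the Hoxc cluster the 2 genes at the 5′ end moved the other way. Hoxc13, known for its part in hair and nail, had 286 in the late array and 79.7 in the early array. Hoxc12, its direct neighbour, had 312 in the late array and 90.9 in the early array. Both early values lay below background, so Hoxc13 was at least 2.55-fold and Hoxc12 at least 2.79-fold higher, and the measured log2 differences of 1.84 and 1.78 rest on dim early values. Ranked by those measured differences, 1.65% of all compared genes were further up than Hoxc13 and 1.80% further up than Hoxc12. Both genes were compared only because their late values passed the floor, so these ranks are not evidence of a rise.

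The remaining Hoxc genes differed less. Hoxc8, a gene of the thoracic region, had 326 in the late array and 219 in the early array, 1.49-fold higher. Its symbol is also an older name of Hoxc9 in RefSeq, while the row named Hoxc9 had 335 in the late array and 346 in the early array. Hoxc5 had 176 in the late array and 110 in the early array, the early value just below background, and was at least 1.57-fold higher. Hoxc4 had 160 in late MDSC against 132 in early MDSC. Hoxc10, a gene of the lumbar region and hindlimb, had 413 in the late array and 491 in the early array. In all, 5 of the 7 Hoxc genes had the higher value in the late array, where 43.5% of all measured genes did. The 2 lower ones were Hoxc9 and Hoxc10. Because of the shared older name, the rows Hoxc8 and Hoxc9 may read 1 gene, which this count takes as 2.

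Among the compared Hoxa genes, Hoxa10, Hoxa5 and Hoxa6 were higher in the late array. Hoxa10 and Hoxa5 reached the floor in that array alone. Hoxa10, a gene of the lumbar region, the limb and the reproductive tract, had 503 in the late array and 184 in the early array, 2.73-fold higher. RefSeq also lists Hoxa10 as an older name of Hoxa11, so the probe set may read either gene. Hoxa5, a gene of the cervical and upper thoracic region, had 555 in the late array and 255 in the early array, 2.18-fold higher. Hoxa6, its direct neighbour in the RefSeq gene order, had 611 in the late array and 440 in the early array, 1.39-fold higher. Hoxa13, the distal limb and genital gene of this cluster and the paralogue of Hoxd13 and Hoxc13, had 434 in the late array and 460 in the early array, a difference of -0.08.

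Hoxa9, whose symbol is also an older name of Hoxa7, had 489 in the late array and 596 in the early array. A row named Hoxa9l, which the rule does not take, carries a symbol that RefSeq lists as an older name of Hoxa9. It had 614 in the late array and 222 in the early array, 2.76-fold higher. The 2 rows that could be Hoxa9 therefore went opposite ways, and no direction is given for Hoxa9. Hoxa4 had 276 in the late array and 301 in the early array. Hoxa2, a gene of the hindbrain and its neural crest, had 79.3 in the late array and 73.3 in the early array, both below background.

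No Hoxb gene was 2-fold apart. The largest difference in the cluster was that of Hoxb6, a thoracic and forelimb gene, with 250 in the late array and 139 in the early array, 1.80-fold higher and just under the floor. Hoxb4, used in hindbrain and blood stem cells, had 272 in the late array and 370 in the early array, 1.36-fold lower. Hoxb3, another hindbrain gene, had 358 in the late array and 415 in the early array. Hoxb7 had 304 in the late array and 349 in the early array. Hoxb1, the hindbrain gene at the 3′ end, had 310 in the late array and 324 in the early array. The 4 compared Hoxb genes, Hoxb1, Hoxb3, Hoxb4 and Hoxb7, were thus all lower in late MDSC, where 42.6% of compared genes were. Their differences ran from -0.45 to -0.06, and only that of Hoxb4 was larger than the probe set SD of 0.22. Over all 9 Hoxb genes 4 were higher and 5 lower, with a median of -0.06.

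The dimmer Hoxb rows showed little. Hoxb8, a thoracic gene, had 127 in the late array and 125 in the early array. Hoxb9, a gene of the ribs, had 51.0 in the late array and 46.6 in the early array, Hoxb5 had 30.6 in the late array and 23.7 in the early array, and Hoxb13, a tail and prostate gene, had 76.4 in the late array and 86.5 in the early array. Those 3 stayed below background in both arrays, so no fold is given.

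**Figure D2:**
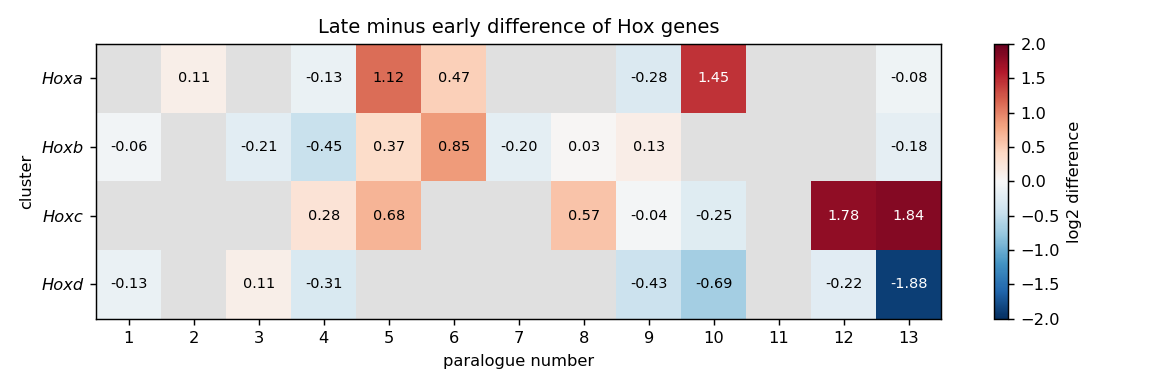
Late minus early log2 difference of the Hox genes reported here, with clusters in rows and paralogue numbers in columns (red, higher in the late array; blue, lower; grey, no value shown). The number 13 column runs from 1.84 at Hoxc13 to -1.88 at Hoxd13, with Hoxa13 at -0.08 and Hoxb13, dim in both arrays, at -0.18.

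By paralogue number, genes of 1 cluster and their counterparts in another did not move together throughout. The 4 genes of paralogue 13 ranged from -1.88 to 1.84. The 3 genes of paralogue 5 (Hoxa5, Hoxb5 and Hoxc5) all had the higher value in the late array, with a median of 0.68, though Hoxb5 was below background in both. Both genes of paralogue 6 were higher, with a median of 0.66. Of the 4 genes of paralogue 4 Hoxc4 alone was higher, and their median was -0.22. Grouped along the clusters, 0 of the 6 genes of paralogues 1 to 3, 1 of the 12 genes of paralogues 4 to 8 and 4 of the 13 genes of paralogues 9 to 13 were at least 2-fold apart, where 5.44% of all measured genes were. The groups are small, and this order along the clusters was not tested.

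**Figure D3:**
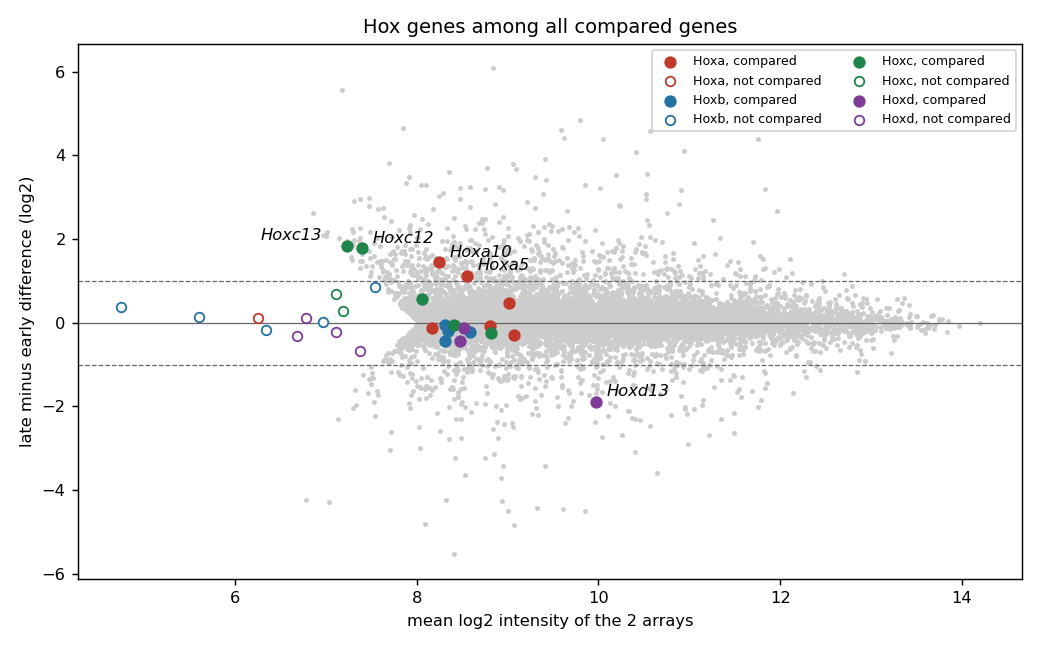
Late minus early log2 difference (vertical) against the mean log2 intensity of both arrays (horizontal) for the 9738 compared genes (grey) and the Hox genes reported here (coloured by cluster, open where not compared). Dashed lines mark a 2-fold difference, and the 5 Hox genes beyond them are named.

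Other transcripts of the clusters showed small differences. The row now named Hoxa3 in RefSeq (RGD1561431) had 129 in the late array and 137 in the early array. The row now named Hoxb2 (LOC100361765) had 192 in the late array and 214 in the early array. Of the microRNA genes whose guides are printed above, Mir196c, beside Hoxb9, had 236 in the late array and 306 in the early array, 1.30-fold lower. Mir196b, beside Hoxa10, had 97.1 in the late array and 76.3 in the early array, below background. Mir196a, Mir10a and Mir10b were also below background in both arrays. Mir615, which stands among the Hoxc genes, had 315 in the late array and 379 in the early array. Such probe sets on a total RNA array do not tell a precursor from its mature form.

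Genes beside the clusters passed 2-fold about as often as all compared genes. Of the 8 RefSeq protein-coding neighbours on each side of each cluster, 64 in all, 52 were measured and 39 compared. Ift70a1 and Ift70a2, read by the same row, both count as measured and were not compared. Of the 39, 4, or 10.3%, were 2-fold or more apart (1 higher and 3 lower in late MDSC), where 8.95% of compared genes were. The 3 lower genes were chosen after their values were seen. On the Hoxa13 side Tril, a Toll-like receptor accessory gene, had 72.5 in the late array and 599 in the early array, at least 5.34-fold lower, and Jazf1, a zinc finger gene, had 378 in the late array and 786 in the early array, 2.08-fold lower. On the Hoxd13 side Chn1, a gene of a Rac-regulating protein, had 1238 in the late array and 2676 in the early array, 2.16-fold lower. The hand-chosen list of 24 flanking genes, which overlaps these neighbours but holds none of those 3, had 22 measured and 17 compared, of which 1 was 2-fold apart, and its median difference was -0.07. That gene was Zfp385a, a zinc finger gene on the Hoxc4 side of the cluster, with 2419 in the late array and 1077 in the early array, 2.25-fold higher. On the Hoxc13 side the nearest gene found under its RefSeq name was Calcoco1, a coactivator and autophagy receptor gene, with 1043 in the late array and 1407 in the early array. Next to Hoxd13, Evx2, a homeobox gene of the distal limb, had 228 in the late array and 196 in the early array, and Lnp, an endoplasmic reticulum gene, had 628 in the late array and 657 in the early array. At the other end of the cluster Mtx2, a mitochondrial import gene, had 1599 in the late array and 1698 in the early array. Cbx5, the heterochromatin protein gene beside Hoxc4, had 3002 in the late array and 2592 in the early array.

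Hox cofactors and chromatin regulators were compared from lists that hold no Hox gene. Of the TALE cofactors 9 of 11 were compared, and 0 were 2-fold apart, where 8.95% of compared genes were, a share that comes to less than 1 gene in a list of this size. Meis2, which binds with Hox proteins in the limb and heart, had 995 in the late array and 530 in the early array, 1.88-fold higher. Meis1 had 1238 in the late array and 1457 in the early array. The median difference of the compared cofactors was 0.11.

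Of the Polycomb genes 24 of 27 were measured and 21 compared, and 0 were 2-fold apart, where 8.95% of compared genes were. Ezh2, the enzyme that methylates histone H3 at lysine 27, had 1153 in the late array and 658 in the early array, 1.75-fold higher, and was the only compared Polycomb gene at least 1.5-fold apart, where 18.6% of compared genes were. The median of the 21 was 0.10. Of the 10 compared Trithorax and demethylase genes, 0 were 1.5-fold apart, against the same 18.6%, and the median was 0.01.

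Retinoic acid, which acts on Hox genes in the embryo through its nuclear receptors, was covered by a list of 19 genes, 9 of them compared. Crabp1, a retinoic acid binding protein, had 1137 in the late array and 4465 in the early array, 3.93-fold lower. Cyp26a1, which breaks retinoic acid down, had 125 in the late array and 261 in the early array, 2.09-fold lower, while Cyp26b1, an enzyme of the same kind, had 290 in the late array and 114 in the early array, 2.54-fold higher. Cyp26a1 only just passed the floor, in the early array alone, and Cyp26b1 passed it in the late array alone. Their dimmer values lay near the background of 112. Of the 9, 1 was thus 2-fold or more higher and 2 were lower, where 5.84% of compared genes were higher and 3.11% lower. The counts were the same over all 19 measured, where 3.59% of all measured genes were higher and 1.86% lower. The other 6 compared members were within 1.5-fold, and the list's median was -0.11. Of those 6, 5 were receptor genes. Rara had 750 in the late array and 1086 in the early array, 1.45-fold lower, and Rarb had 224 in the late array and 284 in the early array, 1.27-fold lower. Rarg had 872 in the late array and 859 in the early array, Rxra had 787 in the late array and 685 in the early array, 1.15-fold higher, and Rxrb had 259 in the late array and 280 in the early array. These 5 are named because they make up the compared receptors, a choice made after their values were seen. Cdx2, a caudal homeobox gene that acts on the clusters, was the one compared Cdx gene, with 422 in the late array and 455 in the early array.

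**Figure D4:**
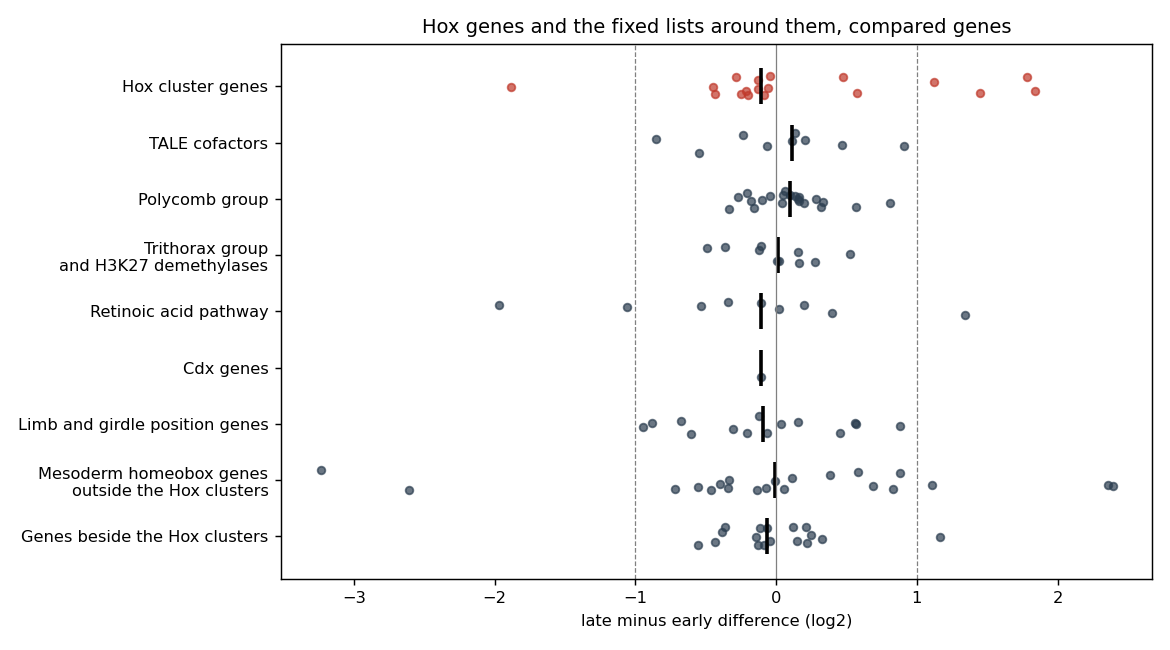
Late minus early log2 difference (horizontal) of each compared gene of the Hox clusters (red) and of the lists around them (dark), with the median of each list as a black bar and 2-fold marked by dashed lines. The medians lie between -0.11 and 0.11, while single genes reach -3.24 (Meox2) and 2.39 (Msx2) in the list of mesoderm homeobox genes.

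Limb position genes outside the clusters were measured for the same reason. Pitx1, a hindlimb regulator, had 170 in the late array and 271 in the early array, 1.60-fold lower. Tbx4, its hindlimb target, had 227 in the late array and 251 in the early array, under the floor in both. Tbx5, the forelimb counterpart, had 71.0 in the late array and 76.5 in the early array, below background in both. The T-box genes Tbx2 (364 in late, 702 in early) and Tbx18 (642 in late, 1184 in early) were 1.93-fold and 1.85-fold lower, and En1, a homeobox gene of the ventral limb, was 1.84-fold higher (748 in late, 406 in early). Of 14 compared members 0 were 2-fold apart, where 8.95% of compared genes were, and in so small a list that 0 says little. At 1.5-fold 1 was higher and 4 were lower, where 12.1% and 6.48% of compared genes were.

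Homeobox genes of mesoderm outside the clusters reached larger differences than the Hox genes. Of 21 compared, 5 passed 2-fold, 3 of them higher and 2 lower in late MDSC, where 5.84% of all compared genes were higher and 3.11% lower. Msx2 passed the floor in the late array alone, and Meox2 and Dlx5 in the early array alone. Those genes had to be higher in that array to be compared. Over all 36 measured, 4 were 2-fold or more higher and 2 lower, where 3.59% and 1.86% of all measured genes were. Msx2 had 964 in the late array and 184 in the early array, 5.25-fold higher, and Dlx2 had 1592 in the late array and 310 in the early array, 5.14-fold higher. Prrx2, a limb mesenchyme gene that was chosen after its values were seen, was 2.16-fold higher. Meox2, a muscle and limb gene, had 112 in the late array and 1056 in the early array, at least 9.42-fold lower, and Dlx5, a bone gene, was at least 4.63-fold lower (85.1 in late, 519 in early).

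Markers that check the label were mixed. For scale, 12603 of all 18489 measured genes lay above background in the late array and 12974 in the early array. Of 12 skeletal muscle markers, 7 lay above background in the late array and 11 in the early array, and their summed intensity was 3477 in the late array and 8368 in the early array. The myosin genes Myh1 and Myh2 carried that gap. Myh1 had 1728 in the late array and 5196 in the early array, and Myh2 had 73.5 in the late array and 1395 in the early array. The other 10 markers summed to 1676 in the late array and 1777 in the early array, and Des, the muscle intermediate filament gene, was 1.58-fold higher in late MDSC. The satellite cell gene Pax7 had 166 in the late array and 164 in the early array, and Myod1, a myoblast factor, had 101 in the late array and 116 in the early array, so both stayed under the floor in both arrays. All 6 smooth muscle markers lay above background in both arrays, with a sum of 23833 in the late array and 30573 in the early array. The 8 fibroblast or mesenchymal markers summed to 40660 in the late array and 53015 in the early array, with 7 and 6 above background. Of 8 leukocyte markers, 3 lay above background in the late array and 2 in the early array, and Ptprc, the pan-leukocyte gene, was below it in both (57.4 in late, 57.5 in early). The 3 detected markers were higher in late MDSC. Cd68 had 279 in the late array and 109 in the early array, at least 2.49-fold higher, Csf1r had 240 in the late array and 129 in the early array, 1.86-fold higher, and Cd14 had 760 in the late array and 449 in the early array, 1.69-fold higher. Whether these marker differences had a part in the Hox differences was not tested, and in a bulk culture fewer cells of a type and less RNA per cell cannot be told apart.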

How the data were processed

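RNA of 2 MDSC cultures was measured on Affymetrix Rat Gene 1.0 ST arrays, per the labels. The authors deposited normalized intensity values on a linear scale in 2 tables, which were identical for all 29214 probe sets. How they normalized, with which software and on which genome build is not given in the sources used here. Log2 was taken without a pseudocount. A single gene was named by 20164 probe sets, several by 328 and none by 8696, and 26 symbols were damaged by a spreadsheet. Probe sets of a gene were averaged, giving 18489 genes. A value under the background level was replaced by that level as the dimmer side of a fold, which is then written "at least". Symbols are the deposited ones, checked against the RefSeq table of GRCr8. Outside the Hox set, the rule named the 2 compared members furthest up and the 2 furthest down in each list where they passed 1.5-fold, and 8 genes whatever their values; other genes named are neighbours or markers, or are marked as chosen after their values were seen. The gene set, the 8 lists and the 7 marker sets were chosen with earlier results of these data known. Some items are not reported here. With 1 array a group, array number limits the precision and no test was possible. Other fold thresholds, filters, scalings, probe set summaries and a pseudocount were tried. The calculations were tested on simulated data. Python 3.11.15, numpy 2.4.6, pandas 2.3.3 and statsmodels 0.14.6 were used.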

Additional observations from a re-analysis of the deposited data

How the results depend on the processing

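The counts of Hox genes past 2-fold, 4 higher and 1 lower in late MDSC, were the same at a 1.5-fold threshold over compared genes, with no filter, with the background filter, under quantile normalization, median centring and lowess detrending, and with a pseudocount of 16. Taking the brightest probe set could change no Hox value, since each Hox gene has 1 probe set. At a 3-fold threshold 2 were higher (Hoxc12 and Hoxc13, with early values below background) and 1 lower. The 75th percentile filter left 1 Hox gene, Hoxd13, so the count higher was 0 and the median difference -1.88, because fewer genes were tested. The mean in place of the median gave 0.17, of the opposite sign. No sign among the 18 compared Hox genes changed under the 3 scaling alternatives, which moved the median of all genes by at most 0.043 on the log2 scale, and over those 3 and the pseudocount 72 of 72 single-gene values moved by less than the probe set SD. In alternatives chosen after the data were seen, leaving out the symbols that are also older names of another Hox gene gave 3 higher and 1 lower, and adding the rows now called Hox gave 5 higher and 1 lower. No paired analysis was possible because each group had 1 array. Leaving out a replicate was likewise not possible. The file carries no detection calls, so signal over background is known only through the olfactory receptor level.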
